A study of Mus musculus with 12 samples.

Results

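The nuclear-encoded subunits of respiratory complexes II to V were taken as the protein-coding genes Sdha, Sdhb, Sdhc, Sdhd and Cyc1 and those with symbols starting with Uqcr, Cox4, Cox5, Cox6, Cox7, Cox8 or Atp5. This gave 49 genes of 35523 genes with summed counts, of which 4 belonged to complex II, 9 to complex III, 18 to complex IV and 18 to complex V. The rule used names only and no measured value. The mRNAs were measured in cells of the stromal vascular fraction (SVF, the non-adipocyte cells of fat) from the epididymal fat of male Lepob/Lepob mice, which lack leptin, aged 12 weeks. The cells were kept for 2 days in an adipogenic cocktail and 2 days in maintenance medium, given fresh medium for 1 h and then cycloheximide, which halts ribosomes on mRNA, for 5 min. The cultures held either rosiglitazone (Rosi) at 1 µM, a drug that activates PPARγ, the receptor that drives fat cell formation, or its vehicle (Veh, DMSO). Poly(A) RNA was sequenced from pooled gradient fractions holding mRNAs with about 3 or more ribosomes (polysome) and from total RNA (input), to learn which mRNAs were heavily translated. The groups were polysome Rosi, polysome Veh, input Rosi and input Veh, with 3 libraries each, labelled as biological replicates, so p-values below measure only the spread between those libraries.

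Input Veh replicates 2 and 3 were identical in all 117135 transcripts and entered every comparison once, so that input Veh had n = 2 and the remaining groups n = 3. Depth was 17.4 to 24.0 M estimated reads over these 11 libraries. Adipocyte markers were higher in Rosi cells, with 9 of 12 called in polysome and 9 of 12 in input. The cells were a mixture, since macrophage markers summed to at least 13318 CPM (counts-per-million) in every library. Of 8 epididymis markers, 5 had no reads in any library. In the fit of all 4 groups 2 were above the count filter, Rnase10 and Crisp1, with Crisp1 at 72.2 to 255.7 CPM. The level of that list thus rests nearly on Crisp1 alone. In such bulk RNA, fewer cells of a type and less RNA per cell cannot be told apart. Ucp1, which defines brown and beige fat, was at 0 to 0.0935 CPM. The 8 brown and beige fat markers summed to 4.29 to 5.11 CPM in input Rosi and 2.35 to 3.12 CPM in input Veh. In polysome the sums overlapped, at 3.91 to 5.73 CPM in Rosi and 3.6 to 5.15 CPM in Veh. Of these markers, Cpt1b was called higher in Rosi cells in input (log2 fold change 3.42 ± 0.71 SE, edgeR adjusted p = 0.0348) and in polysome (7.36 ± 0.97, edgeR adjusted p = 0.00372). With sums this low, both Cpt1b values rest on low levels. In input Elovl3 (3.39) and Prdm16 (0.54) lay above 0 and Dio2 (-0.96) below it, and none of these passed. In polysome Prdm16 (-0.62) and Dio2 (-0.06) lay below 0. Within each group, most members were highest in the same library. Of 45 tested members, 28 were highest in polysome Rosi replicate 3, 26 in polysome Veh replicate 1 and 27 in input Rosi replicate 1. Of the 2 libraries of input Veh, replicate 2 was the higher for 38. This was not counted over all genes, so a shift of the members cannot be told apart from a shift of many genes in a library.

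These complexes sit in the inner mitochondrial membrane. Complex II (succinate dehydrogenase) passes electrons from succinate to ubiquinone, complex III passes them on to cytochrome c, complex IV (cytochrome c oxidase) gives them to oxygen, and complex V (ATP synthase) uses the proton gradient that complexes III and IV help to build. All subunits of complex II and most of those of the other complexes are made by cytosolic ribosomes and imported, while the catalytic core of complex IV, cytochrome b and a few membrane subunits of complex V are translated inside the mitochondrion.

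The mRNAs that the results turn on differ in coding length. The bases around their start codons, where scanning ribosomes begin, are printed to show what the short and the long ones share there. Each line runs 5′ to 3′, with 12 bases before the start codon, the start codon in capitals and 12 bases after it, from the GENCODE M21 transcript of the gene with most reads. The first 5 are short subunits that were high in the polysome pool and the last 3 are long subunits that were low in it.
Cox7b, chromosome X, 80 codons: ttcgtctccgcgATGttgcccttagcc
Cox6c, chromosome 15, 76 codons: acattggctaccATGagttccggtgcg
Uqcrb, chromosome 13, 111 codons: tctcaggtcaaaATGgcgggccgatct
Cox7a2, chromosome 9, 83 codons: aaccgagccaagATGttgcggaatctg
Atp5mpl, chromosome 12, 58 codons: ggtcccgcggagATGtttcaaaccttg
Uqcrc1, chromosome 9, 480 codons: ggaagttagaagATGgcggcgtccgca
Atp5b, chromosome 10, 529 codons: ccggattccgccATGttgagtcttgtg
Sdha, chromosome 13, 664 codons: gggaaggcagacATGgccggggttggc

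All 8 have a purine at the base 3 before the start codon, a position that favours initiation, and both kinds include mRNAs with and without a G right after it. Over the 45 tested members, 42 (93.3%) had that purine, against 86.1% of 12997 other protein-coding genes with a readable start. A G right after the start codon was present in 19 members (42.2%), against 52.6% of the other genes. The 5′ untranslated region had a median of 103 bases in members and 171 bases in the other genes. The median coding length was 129 codons in members and 448 codons in other protein-coding genes tested, and the median mRNA length was 731 bases in members and 2940 bases in the others.

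Of the 49 members, 45 passed the filter on low counts in every comparison. The other 4 were Cox7b2 with 2 reads over all 11 libraries, Cox8b with 1 read, Cox8c with 0 reads and a second gene annotated as Atp5o (ENSMUSG00000116933) with 19 reads. A count of 0 allows up to 3 counts in a library, or 0.124 to 0.183 CPM, from counting error alone. Cox8b is known in mouse as the isoform of heart, muscle and brown fat, and Cox7b2 and Cox8c as testis genes.

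Levels of different genes were compared as transcripts-per-million (TPM), which divides by length. Cox4i1, the most abundant member, averaged 1535 TPM over the 11 libraries, followed by Cox6a1 at 1304 TPM, Atp5l at 1046 TPM and Cox6c at 1022 TPM. The highest of complex II was Sdhb, its iron-sulfur subunit, at 286.5 TPM, and the highest of complex III was Uqcrq at 832.9 TPM. The median over tested members was 145.6 TPM for complex II, 451.4 TPM for complex III, 405.1 TPM for complex IV and 430.9 TPM for complex V. So the mRNAs of complex II were the least abundant group on the TPM scale. The TPM of the shortest mRNAs rests on few effective bases, because the mRNA of Atp5mpl has 366 bases and library fragments spanned 321.8 to 331.5 bases, by transcript length less effective length.

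Several subunits of complexes IV and V have alternative genes, and in each family 1 or 2 genes carried nearly all mRNA. Cox4i1 made up 99.6 to 99.8% of Cox4i TPM in the 11 libraries, and Cox4i2, known as the lung-enriched isoform, 0.152 to 0.424%. Cox6a1 made up 99.7 to 99.9% of its pair, while Cox6a2, the heart and muscle isoform, stayed at 1.61 to 3.76 TPM. Cox6b2, known from testis, was at 11.8 to 26.9 TPM, against 647.4 to 1166 TPM for Cox6b1. Cox8a was the only Cox8 gene above the count filter, at 557.5 to 921.5 TPM.

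**Figure D1:**
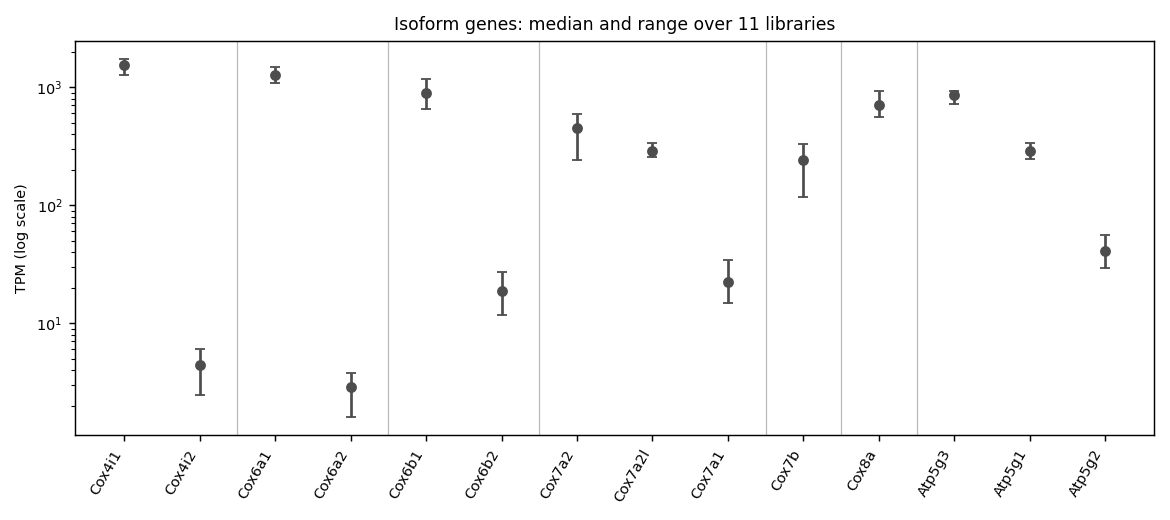
Abundance of the isoform genes of complexes IV and V that had reads in most libraries, as TPM on a log axis. Points are medians and bars the range over 11 libraries, and the vertical lines part the families. Cox4i2 and Cox6a2 lie lowest, with medians of 4.41 and 2.9 TPM.

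The Cox7a and Atp5g families were more evenly shared. Cox7a2 made up 62.4 to 65.1% of Cox7a TPM in polysome Rosi and 43.5 to 46.7% in input Rosi, and 58.2 to 59.7% in polysome Veh and 47.1 to 49.3% in input Veh. Cox7a2l made up 31.1 to 34.2% in polysome Rosi and 50.7 to 53.4% in input Rosi. It made up 36.6 to 38.9% in polysome Veh and 46.7 to 49.4% in input Veh. The polysome and input ranges of both genes did not overlap. Cox7a1, the muscle isoform, made up 2.59 to 3.99% over all libraries. The c ring of ATP synthase is made from 3 genes that encode the same mature protein, of which Atp5g3 held 67.9 to 75.6%, Atp5g1 21.7 to 27.4% and Atp5g2 2.42 to 5.1% of TPM, in that order in every library.

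Whether these mRNAs were more or less present in the polysome pool than in total RNA was tested in a fit of all 4 groups with edgeR's quasi-likelihood test, in which a call needed a Benjamini-Hochberg adjusted p under 0.05 together with a log2 fold change beyond 0.2 in either direction. In Rosi cells 27 of 45 members were higher in polysome than in input (29.1% of all 14042 genes tested were), 4 were lower (26.0% of all genes) and 14 did not pass. In Veh cells 19 members were higher (24.7% of all genes), 6 were lower (24.6% of all genes) and 20 did not pass, and without input Veh replicate 1 the higher ones were 11. The median log2 fold change of members was 0.49 in Rosi cells and 0.22 in Veh cells, beside 0.00 and 0.02 over all genes tested. Past a log2 fold change of 1 in size, 7 members were higher in Rosi cells (6.49% of all genes) and 0 lower (4.86% of all genes), and 3 were higher in Veh cells (2.99% of all genes) and 1 lower (6.68% of all genes). Of the 31 members called in Rosi cells, 23 (74.2%) were also called in Veh cells, which was 92% of the 25 called there, and all 23 had the same direction. With library totals alone as the scale, the median of all genes in Veh cells moved to 0.16 and that of members to 0.37, so that members stood above all genes by about the same distance.

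**Figure D2:**
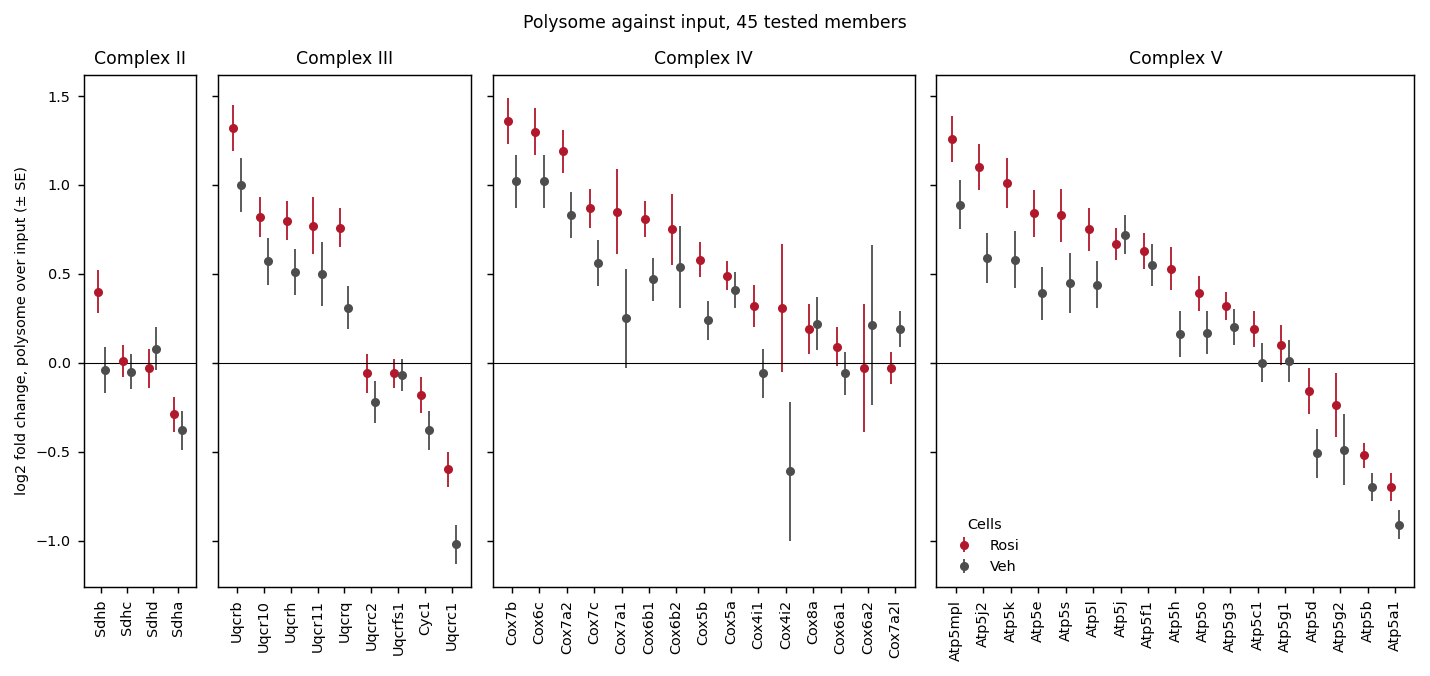
Log2 fold change of polysome over input for the 45 tested members, by complex, in Rosi cells (red) and Veh cells (grey). Points are the fitted values, bars their standard errors, and members are ordered by the Rosi value. The values span 1.36 for Cox7b to -0.70 for Atp5a1 in Rosi cells.

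The highest values belonged to small accessory subunits. Cox7b, a subunit of complex IV, had 152.5, 179.4 and 189.3 CPM in polysome Rosi, against 66.4, 73.7 and 63.3 CPM in input Rosi. In Veh cells Cox7b had 186.3, 144.9 and 131.6 CPM in polysome and 73.7 and 78.7 CPM in input. All polysome libraries were above all input libraries, and the fold change was 2.56 in Rosi cells (log2 1.36 ± 0.13 SE, edgeR adjusted p = 9.22e-07) and 2.02 in Veh cells (log2 1.02 ± 0.15, edgeR adjusted p = 4.75e-05). Cox6c, another small complex IV subunit, had 238.4, 274.3 and 308.2 CPM in polysome Rosi, against 107.8, 120.0 and 105.9 CPM in input Rosi. In Veh cells Cox6c had 285.8, 216.8 and 210.3 CPM in polysome and 107.4 and 127.0 CPM in input, which again left a clear gap between the pools. Its log2 fold changes were 1.30 ± 0.13 in Rosi cells (edgeR adjusted p = 1.44e-06) and 1.02 ± 0.15 in Veh cells (edgeR adjusted p = 5.24e-05).

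Uqcrb, the subunit of complex III that lies near the ubiquinone site, had 170.0, 196.2 and 216.0 CPM in polysome Rosi, against 86.8, 79.6 and 67.6 CPM in input Rosi. In Veh cells Uqcrb had 203.4, 164.7 and 149.6 CPM in polysome and 78.2 and 93.8 CPM in input, and its fold change was 2.49 in Rosi cells and 2.01 in Veh cells. Every polysome library was thus above every input library for this gene too. Atp5mpl, a small membrane subunit of ATP synthase, had 105.0, 118.4 and 134.0 CPM in polysome Rosi, against 51.2, 52.1 and 45.8 CPM in input Rosi. In Veh cells it had 120.3, 97.5 and 96.9 CPM in polysome and 50.0 and 63.4 CPM in input. Its log2 fold changes were 1.26 ± 0.13 in Rosi cells and 0.89 ± 0.14 in Veh cells, with edgeR adjusted p-values of 1.44e-06 and 0.000129. Cox7a2, the widely expressed Cox7a isoform, rose by 1.19 ± 0.12 on the log2 scale in the polysome pool of Rosi cells and 0.83 ± 0.13 in that of Veh cells. Its sister Cox7a2l did not pass, with -0.03 ± 0.09 in Rosi cells and 0.19 ± 0.10 in Veh cells.

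**Figure D3:**
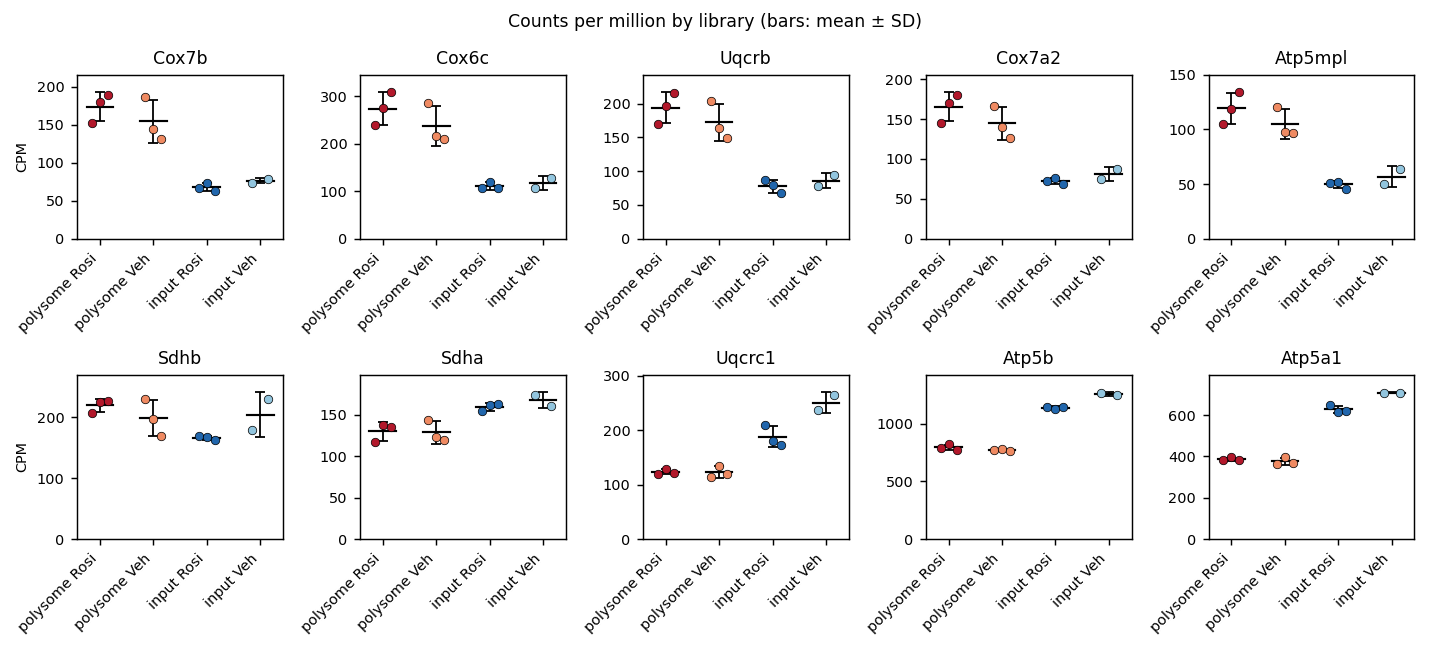
CPM of 10 members in each library, with polysome Rosi, polysome Veh, input Rosi and input Veh from left to right in each panel and every axis starting at 0. Dots are libraries, lines the mean and bars the SD (n = 3, input Veh n = 2). The top row and Sdhb hold members whose polysome Rosi values all lie above their input Rosi values, and the other members of the bottom row lie lower in polysome Rosi than in input Rosi.

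In Rosi cells the 4 members lower in the polysome pool were Atp5a1, Atp5b, Uqcrc1 and Sdha, all above 400 codons, and in Veh cells the shorter Atp5d and Cyc1 were lower as well. Atp5a1, which forms the catalytic head of ATP synthase together with Atp5b, had 381.2, 395.4 and 383.6 CPM in polysome Rosi, against 647.9, 615.6 and 620.9 CPM in input Rosi. In Veh cells Atp5a1 had 364.9, 396.9 and 370.3 CPM in polysome and 706.5 and 708.9 CPM in input. It was 1.62-fold lower in polysome than in input in Rosi cells (log2 -0.70 ± 0.08, edgeR adjusted p = 3.16e-06) and 1.88-fold lower in Veh cells (log2 -0.91 ± 0.08, edgeR adjusted p = 1.28e-06). Atp5b, which carries the catalytic sites, had 787.9, 820.4 and 775.6 CPM in polysome Rosi, against 1148, 1131 and 1146 CPM in input Rosi. In Veh cells Atp5b had 771.2, 779.0 and 763.6 CPM in polysome and 1268 and 1246 CPM in input, with no overlap between the pools. Its log2 fold changes were -0.52 ± 0.07 in Rosi cells and -0.70 ± 0.08 in Veh cells.

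Uqcrc1, a core protein of complex III, had 119.9, 129.0 and 122.0 CPM in polysome Rosi, against 210.2, 180.7 and 173.0 CPM in input Rosi. In Veh cells Uqcrc1 had 114.3, 134.9 and 120.0 CPM in polysome and 236.6 and 263.6 CPM in input, so its polysome values were alike in both treatments while the input values were lower in Rosi cells. The log2 fold changes were -0.60 ± 0.10 in Rosi cells (edgeR adjusted p = 0.000115) and -1.02 ± 0.11 in Veh cells (edgeR adjusted p = 4.01e-06). The paired core protein Uqcrc2 did not pass in either treatment, with -0.06 ± 0.11 and -0.22 ± 0.12. Atp5d, the delta subunit of the central stalk, and Cyc1, the cytochrome of complex III, were called in Veh cells alone, with -0.51 ± 0.14 and -0.38 ± 0.11 there, against -0.16 ± 0.13 and -0.18 ± 0.10 in Rosi cells, and the difference between treatments did not pass its test for either (adjusted p = 0.733 and 0.785). Their calls in Veh cells did not hold without input Veh replicate 2 (adjusted p = 0.0885 for Atp5d and 0.137 for Cyc1) or with limma on log2(TPM + 1) (0.0542 and 0.357), nor that of Cyc1 with library totals alone (0.0958).

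In complex II, Sdha, the flavoprotein that holds the succinate site, fell by 0.29 ± 0.10 on the log2 scale in polysome against input in Rosi cells (edgeR adjusted p = 0.0199) and by 0.38 ± 0.11 in Veh cells (edgeR adjusted p = 0.00935). In Rosi cells this call did not hold without polysome Rosi replicate 1 (adjusted p = 0.1), input Rosi replicate 2 (0.0502) or input Rosi replicate 3 (0.0609), nor with library totals alone (0.0584), and in Veh cells it did not hold without input Veh replicate 1 (0.0898) or with library totals alone (0.0821). Sdhb had 206.8, 224.6 and 227.5 CPM in polysome Rosi, against 169.8, 167.0 and 162.8 CPM in input Rosi, a rise of 0.40 ± 0.12 on the log2 scale (edgeR adjusted p = 0.00838). In Veh cells Sdhb had 229.6, 197.8 and 169.7 CPM in polysome and 178.8 and 230.5 CPM in input, so these groups overlapped. The membrane anchors Sdhc and Sdhd were at 0.01 ± 0.09 and -0.03 ± 0.11 in Rosi cells and at -0.05 ± 0.10 and 0.08 ± 0.12 in Veh cells, none of which passed. Complex II thus held both directions among its 4 subunits.

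Sorted by role, all 5 small subunits of complex III and all 4 small membrane subunits of complex V were higher in polysome in both treatments. For the counts by role here, 29.1% of all genes were higher and 26.0% lower in Rosi cells, and 24.7% and 24.6% in Veh cells. The medians of the complex III group were 0.80 in Rosi cells and 0.51 in Veh cells, and those of the complex V group 1.06 and 0.59. In the peripheral stalk of ATP synthase, which holds the head still, 4 of 4 members were higher in Rosi cells and 2 of 4 in Veh cells. Its b subunit Atp5f1 had 376.9, 409.8 and 431.6 CPM in polysome Rosi, against 243.1, 285.3 and 259.5 CPM in input Rosi, without overlap, and in Veh cells 440.6, 366.8 and 348.7 CPM in polysome and 266.9 and 258.7 CPM in input, also without overlap. Atp5j, another stalk subunit, rose by 0.67 ± 0.09 in Rosi cells and 0.72 ± 0.11 in Veh cells and was among the few members whose value was no higher in Rosi cells. Atp5o and Atp5h were called in Rosi cells alone, at 0.39 ± 0.10 and 0.53 ± 0.12, against 0.17 ± 0.12 and 0.16 ± 0.13 in Veh cells, and the difference between treatments did not pass for either (adjusted p = 0.767 and 0.719). The catalytic head and central stalk held both directions. Atp5e, its smallest subunit, rose by 0.84 ± 0.13 in Rosi cells and 0.39 ± 0.15 in Veh cells, and Atp5c1, the rotating gamma subunit, did not pass. Of the c ring genes, Atp5g3 alone passed, in Rosi cells, with 0.32 ± 0.08. In complex IV, 10 of 15 tested members were higher in Rosi cells and 6 of 15 in Veh cells, and none was lower. Cox4i1, its most abundant mRNA, rose by 0.32 ± 0.12 in Rosi cells (edgeR adjusted p = 0.0427) and was at -0.06 ± 0.14 in Veh cells. Cox5a and Cox5b, which are mid-sized subunits of the matrix side, rose by 0.49 ± 0.08 and 0.58 ± 0.10 in Rosi cells. In Rosi cells the rare isoforms Cox7a1 and Cox6b2 rose by 0.85 ± 0.24 and 0.75 ± 0.20, with polysome means of 3.71 and 4.78 CPM and input means of 2.06 and 2.84 CPM. Cox6a1 and Cox8a did not pass in either treatment, although they are as short as several that did.

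Across the members the polysome difference followed coding length. In Rosi cells the 17 tested members of up to 100 codons had a median log2 fold change of 0.84, the 17 above 100 and up to 200 codons 0.32, the 6 above 200 and up to 400 codons 0.29 and the 5 above 400 codons -0.52. In Veh cells these medians were 0.54, 0.16, -0.02 and -0.70. Of the shortest class 15 of 17 were called higher in Rosi cells and 13 of 17 in Veh cells, and none was called lower. Of 338 other genes of that length, 200 were called higher in Rosi cells and 160 in Veh cells. Of the longest class 4 of 5 were called lower in both treatments, where 2810 of 7604 other genes of that length were in Rosi cells and 2580 in Veh cells. The member of this class that was not called was Uqcrc2, with 453 codons. Spearman's rho between coding length and log2 fold change was -0.75 over the 45 members in Rosi cells and -0.76 in Veh cells, and Pearson's r with log2 length was -0.75 in both. These points are genes measured in the same libraries and are not independent. With the length of the whole mRNA, rho was -0.64 in Rosi cells and -0.59 in Veh cells.

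**Figure D4:**
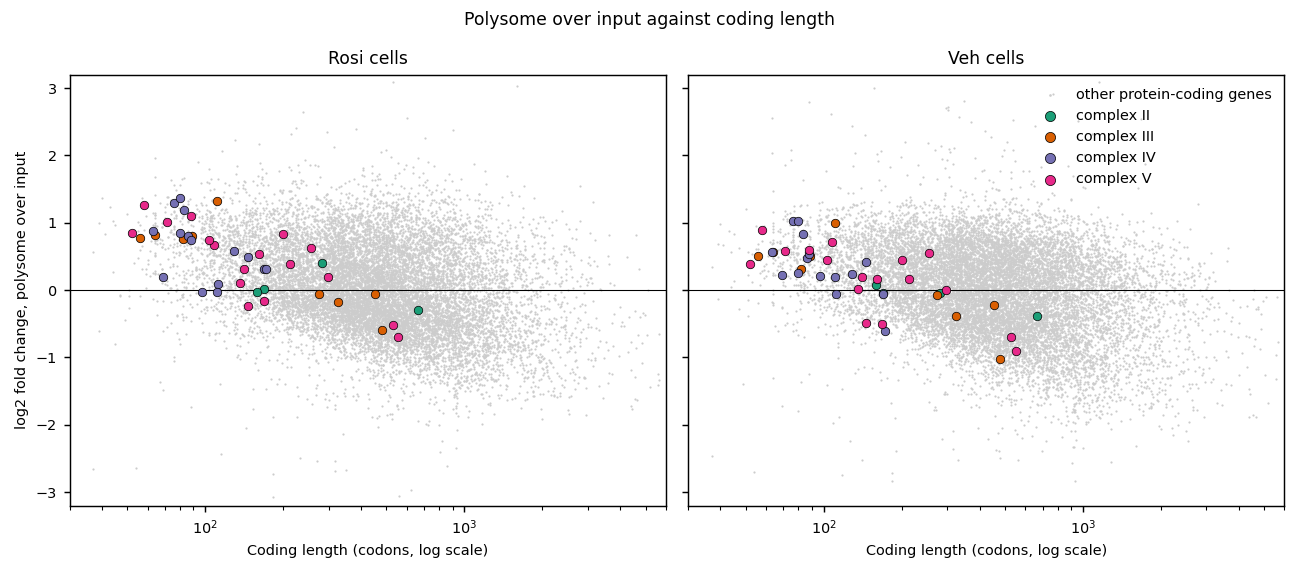
Log2 fold change of polysome over input against coding length in codons on a log axis, in Rosi cells (left) and Veh cells (right). Coloured points are the 45 tested members by complex and grey points 13484 other protein-coding genes, of which 11 and 24 lie outside the axes. Members up to 100 codons lie mostly above 0 and those above 400 codons lie below it.

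Other genes showed the same order of medians with a weaker relation. Among the 13484 other protein-coding genes rho with coding length was -0.32 in Rosi cells and -0.30 in Veh cells. Their medians in Rosi cells were 0.63, 0.37, 0.08 and -0.19 in the same 4 classes of length, shortest first, and in Veh cells 0.46, 0.34, 0.09 and -0.15. The members up to 100 codons had a higher median than other genes of that length in both treatments, those above 100 and up to 200 codons a lower one, and the 5 above 400 codons a lower one, and these gaps were not tested. Nuclear complex I subunits, with 6, 23, 6 and 3 genes in these classes, had medians of 0.91, 0.66, 0.05 and -0.19 in Rosi cells. In Veh cells these were 0.67, 0.28, -0.18 and -0.41, so the order by length was not particular to the members. Cytosolic ribosomal proteins, which are of similar length, had medians of 0.02, 0.02, -0.26 and -0.43 in Rosi cells in these classes, with 11, 47, 21 and 2 genes, and of -0.14, -0.22, -0.28 and -0.37 in Veh cells. Their medians were thus also lower in the longer classes, while their short genes had medians near or below 0. The fragment length did not separate the pools, at 321.8 to 330.0 bases in polysome and 324.5 to 331.5 bases in input libraries.

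The rest of the nuclear-encoded respiratory machinery was measured in the same fit. Of 38 nuclear complex I subunits, 28 were higher and 2 lower in polysome in Rosi cells (median 0.60), and 15 were higher and 3 lower in Veh cells (median 0.23). Among them was Ndufa4, now counted as a complex IV subunit, at 1.11 ± 0.13 in Rosi cells, while Ndufv1, a long subunit that accepts electrons from NADH, was at -1.02 ± 0.11 in Veh cells. Of 40 assembly factors of complexes II to V, 23 were higher and 3 lower in polysome in Rosi cells, and 23 were higher and 2 lower in Veh cells. Over all genes tested, 29.1% were higher and 26.0% lower in Rosi cells, and 24.7% and 24.6% in Veh cells. Slirp, an RNA-binding protein of the mitochondrion, was at 1.29 ± 0.15 in Rosi cells and 1.04 ± 0.17 in Veh cells. Cycs, the cytochrome c that joins complexes III and IV, was at 1.10 ± 0.12 in Rosi cells and 0.72 ± 0.13 in Veh cells. It belongs to a list of 14 tested electron carriers, of which 5 were higher and 2 lower in Rosi cells (median 0.08). In Veh cells 3 were higher and 3 lower (median 0.10). Coq6 of that list was lower in both, at -0.83 ± 0.15 in Rosi cells and -0.91 ± 0.17 in Veh cells.

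Whether Rosi changed the abundance of these mRNAs was tested in each kind of RNA on its own, with the same threshold. In input 0 of 45 members were called, where 1.34% of all 13603 genes were, and the smallest adjusted p among members was 0.103, for Uqcrc1. In polysome 0 of 45 were called, where 0.655% of all 13436 genes were. The median log2 fold change of members was -0.07 in input and 0.10 in polysome, beside 0.01 and -0.01 for all genes. The signs leaned opposite ways, with 32 of 45 members below 0 in input and 40 of 45 above 0 in polysome. Of all genes, 6548 of 13603 were below 0 in input and 6407 of 13436 above 0 in polysome. The nuclear complex I subunits leaned likewise, with 32 of 38 below 0 in input and 31 of 38 above 0 in polysome. Members share libraries and are not independent, and these counts were not tested. In input Rosi the summed level of all members was 6735 to 7357 CPM, against 7476 to 8203 CPM in input Veh. In polysome Rosi it was 7836 to 8856 CPM, against 7437 to 8305 CPM in polysome Veh, which overlapped. By complex, the input sums of Rosi and Veh did not overlap for complexes II, III and V, at 581.0 to 582.9, 874.8 to 1006 and 3589 to 3789 CPM in input Rosi, against 603.8 to 654.0, 1012 to 1139 and 3992 to 4218 CPM in input Veh, and overlapped for complex IV, at 1690 to 1981 CPM in input Rosi and 1869 to 2193 CPM in input Veh. Nuclear complex I sums did not overlap either, at 2489 to 2769 CPM in input Rosi and 2836 to 3151 CPM in input Veh. Those of cytosolic ribosomal proteins did, at 47354 to 53634 and 51755 to 60169 CPM. With 3 libraries against 2, ranges can part easily without a treatment effect. The share of all genes that part in this way was not counted, and the sums were not tested.

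**Figure D5:**
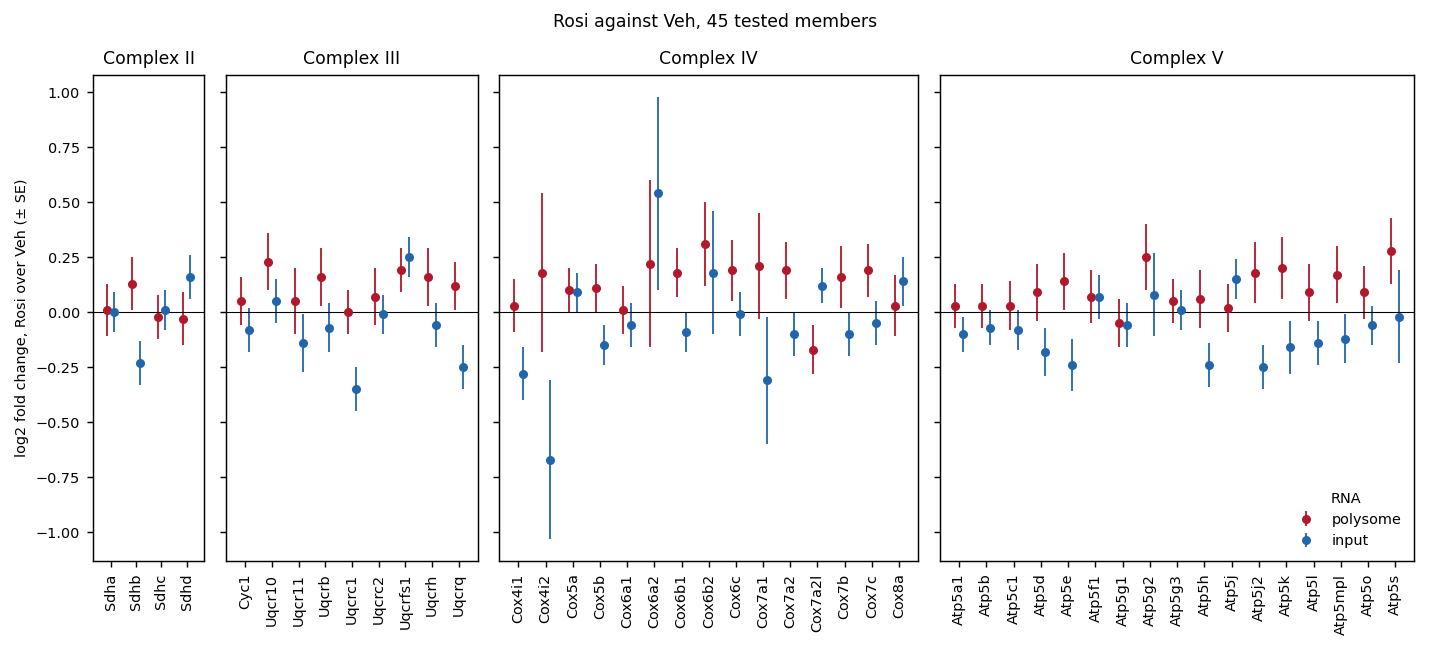
Log2 fold change of Rosi over Veh for the 45 tested members, by complex, in polysome (red) and in input (blue). Points are fitted values from separate fits and bars their standard errors. No member was called, and 40 of 45 polysome values lie above 0 and 32 of 45 input values below it. Of all genes tested, 6407 of 13436 were above 0 in polysome and 6548 of 13603 below 0 in input.

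The lowest input values belonged to Cox4i2, at -0.67 ± 0.36, and Uqcrc1, at -0.35 ± 0.10, neither of which passed the adjusted threshold. Uqcrc1 had 210.2, 180.7 and 173.0 CPM in input Rosi, against 236.6 and 263.6 CPM in input Veh, without overlap. It was called in input, and no other member was, by DESeq2 and without a count filter, and with all 12 libraries it was called together with Uqcrfs1. Cox4i1 had 544.3, 449.3 and 425.3 CPM in input Rosi, against 520.7 and 680.2 CPM in input Veh, with input Rosi replicate 1 above input Veh replicate 1, so the groups overlapped. Without input Rosi replicate 1, Uqcrc1, Cox4i1 and Atp5d were called lower, and 1580 genes in all were called instead of 182. The highest input values were 0.54 ± 0.44 for Cox6a2, present at about 1 CPM, and 0.25 ± 0.09 for Uqcrfs1, the Rieske iron-sulfur protein of complex III. Uqcrfs1 had 104.7, 105.5 and 103.5 CPM in input Rosi, against 90.7 and 93.3 CPM in input Veh. At an unadjusted p under 0.05, 6 members were lower in input (7.79% of all genes were), namely Sdhb, Uqcrc1, Uqcrq, Cox4i1, Atp5h and Atp5j2, and 1 was higher.

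In polysome 0 of 45 members were under an unadjusted p of 0.05 (4.73% of all genes were). The highest values there were 0.31 ± 0.19 for Cox6b2 and 0.28 ± 0.15 for Atp5s, a factor related to ATP synthase, and the lowest were -0.17 ± 0.11 for Cox7a2l and -0.05 ± 0.11 for Atp5g1. The head subunits Atp5a1 and Atp5b were both at 0.03 ± 0.10. Without polysome Veh replicate 1, 11 members were under an unadjusted p of 0.05, where 15.3% of all genes were, and 0 were called. Macrophage markers moved with the treatment in input, where all 12 had a log2 fold change below 0, 10 of them at an unadjusted p under 0.05, and their sum was 13318 to 15745 CPM in input Rosi, against 18403 to 21204 CPM in input Veh. In polysome the sum was 16364 to 20568 CPM in Rosi and 18221 to 23225 CPM in Veh. Adipocyte markers summed to 1712 to 2023 CPM in input Rosi, against 752.2 to 861.4 CPM in input Veh. Smooth muscle markers summed to 12456 to 13140 CPM in input Rosi, against 14162 to 14331 CPM in input Veh, with 7 of 8 below 0 and 0 under an unadjusted p of 0.05. Epididymis markers summed to 72.5 to 91.8 CPM in input Rosi, against 111.9 to 124.7 CPM in input Veh, nearly all from Crisp1 at -0.49 ± 0.12 (edgeR adjusted p = 0.0613). The part of these markers in the member values was not tested.

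Translation efficiency, the change of polysome over input between Rosi and Veh cells, was tested as the interaction of RNA fraction and treatment, with a call at the same adjusted p and a log2 fold change beyond 1 in either direction. It rests on the same libraries as the comparisons above. It called 0 of 45 members and 0 of 14042 genes (0% of all genes) with edgeR, and 0 members and 1 gene with DESeq2. The members had a median of 0.27, beside 0.06 over all genes. Of the members 40 of 45 were above 0, as were 8299 of all 14042 genes and 38 of 38 nuclear complex I subunits, so this lean was not particular to the members. At an unadjusted p under 0.05, 7 members were higher (4.46% of all genes were) and 0 lower. These were Sdhb, Uqcrc1, Uqcrq, Cox5b, Cox6b1, Atp5e and Atp5j2, with an adjusted p of 0.719 each. Atp5j2, the f subunit of the ATP synthase membrane part, had the largest of these values, 0.51 ± 0.19. It had 178.6, 214.7 and 231.3 CPM in polysome Rosi and 215.5, 172.3 and 158.8 CPM in polysome Veh, which overlapped, and 102.6, 101.4 and 87.1 CPM in input Rosi and 112.1 and 129.6 CPM in input Veh, which did not.

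By complex the median translation efficiency difference was 0.07 for complex II, 0.27 for complex III, 0.32 for complex IV and 0.25 for complex V. By coding length it was 0.34, 0.25, 0.20 and 0.18 in the 4 classes, shortest first. The extremes were rare isoforms, 0.92 ± 0.53 for Cox4i2 and 0.60 ± 0.37 for Cox7a1 on one side and -0.24 ± 0.58 for Cox6a2 on the other, beside -0.22 ± 0.14 for Cox7a2l, and none passed. The 38 complex I subunits had a median of 0.30 and the 81 tested cytosolic ribosomal proteins 0.15. The member median was 0.38 without input Veh replicate 1 and 0.17 without input Veh replicate 2, the library of that pair in which most members were higher. The 7 members at an unadjusted p under 0.05 became 0 without input Veh replicate 2, 22 without polysome Veh replicate 1, 16 without polysome Rosi replicate 1, 14 without input Veh replicate 1, 11 without input Rosi replicate 1, and 4 or 5 without any 1 of the remaining 6 libraries. Of all genes, in both directions, 6.84% were under that p with every library, and 3.66%, 14.6%, 7.03%, 7.08% and 10.3% without those 5 libraries in the same order.

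The nuclear factors known to act on respiratory genes were measured as well. Of 12 tested regulators, 0 were called for Rosi against Veh in either RNA. In polysome against input in Rosi cells, 4 of the 12 were higher (29.1% of all genes were), 2 lower (26.0% of all genes) and 6 did not pass. Their median was 0.02, so as a list they stood close to all genes. Among those called, Tfam, which packages mitochondrial DNA, was at 0.92 ± 0.13, Tfb2m at 1.07 ± 0.12 and Gabpa at 0.69 ± 0.10, while Pprc1 was at -1.04 ± 0.13. Ppargc1b, a coactivator of mitochondrial genes, was at 0.93 ± 0.51 for Rosi against Veh in polysome (edgeR adjusted p = 1).

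Motifs of such factors were looked for in the promoters of the members, since these genes are known to share them. RefSeq windows on GRCm38.p6, each with 250 bases before and 50 after a gene start, covered 34 of the 49 members in 37 windows. All other RefSeq windows served for comparison and were not limited to genes tested here, so the 2 sets may differ in more than membership. The letters GCGCATGCG of NRF1, read on both strands, were in 6 of 37 member windows (16.2%), against 1.7% of 32814 other windows, and the members were Atp5g2, Atp5k, Atp5l, Cox6a1, Uqcr11 and Uqcrc1. The match in 2 of them is shown with the motif in capitals, together with the bases beside it.
Atp5k, minus strand of chr5:108434433-108434457: tcactgcgGCGCATGCGcctttctg
Uqcrc1, plus strand of chr9:108936670-108936694: tccgctctGCGCATGCGcagcgcgg

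The ETS letters CCGGAAGTG were in 2.7% of member windows and 2.0% of others, the YY1 letters AAGATGGCG in 5.4% and 1.4%, the CRE letters TGACGTCA in 2.7% and 1.8%, and CCAAT in 54.1% and 37.4%, on either strand. The letters of NRF1 are nearly their own reverse complement, so a window with a match on both strands counted once, and the YY1 match of Atp5j2 lies over its start codon (caggacttcaagATGgcgtcactcgtg, start codon in capitals). Members with the NRF1 letters stood on both sides in the polysome pool, with Atp5k at 1.01 ± 0.14 and Uqcrc1 at -0.60 ± 0.10 in Rosi cells. A match is a description of these windows and not of binding.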

How the data were processed

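Polysome and input poly(A) RNA of cultured epididymal SVF cells was sequenced. The libraries titled with the tissue alone were taken as the polysome pool, because the others are titled input. The protocols give 4 days of differentiation and the design text of the series another number, and the pool is described as 3 or more ribosomes there and as more than 3 in the article. The authors used bcl2fastq 2.17, FastQC and Salmon (versions of the last 2 not stated) against mm10, and strandedness is not given in the sources used here. The authors deposited estimated counts for each transcript, which were summed by GENCODE M21 gene and rounded. The TPM deposited by the authors was summed for levels between genes, and the deposited effective length served only for fragment lengths.

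Of 117135 transcripts 115973 matched a gene, and the 1162 others held 0.381 to 0.464% of reads. CPM are scaled to the library sizes of the joint fit. Tests used edgeR 4.0.16 in R 4.3.3 (filterByExpr, TMM, quasi-likelihood, two-sided, Benjamini-Hochberg over all genes tested), and were checked on simulated data. Standard errors were obtained by dividing the size of each log2 fold change by the root of its F statistic. Rosi against Veh was fitted in each RNA alone and the rest in 1 fit of 4 groups, where input Veh had n = 2. Alternatives were DESeq2 1.42.0, other scaling factors, other count filters, limma 3.58.1 on log2(TPM + 1) where 2 or more libraries reached a TPM of 1, protein-coding transcripts alone, other samples in the fit, all 12 libraries, a replicate block, other thresholds and each library left out.

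Named were, per comparison, up to 6 called members of smallest adjusted p in each direction, or the 2 most extreme where fewer were called, with the isoform families, the Sdh genes, the most abundant member of each complex and up to 4 genes of each list; other members were named after their values were seen. Members and lists were chosen with earlier results of these data known. Coding length came from GENCODE in place of the protein length planned. 8 pseudogenes with such symbols were left out, and reads that fit both a gene and its processed copies are split by Salmon, so levels of members with such copies are less certain. Floors and intervals cover counting error only.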

Additional observations from a re-analysis of the deposited data

How the results depend on the processing

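Over 203 alternatives to the counts and medians of members, 190 gave a count within 1.5 times or a median within 1 SD of the library medians, and 13 did not. In input, the count of called members was 1 with DESeq2, 1 with no count filter, 2 with all 12 libraries as deposited, and 0 to 3 with a library left out. Polysome against input called 31 members in Rosi cells, 29 to 31 with a library left out, and 25 in Veh cells, 17 to 26 with a library left out. With the minimum log2 fold change raised to 1, it called 7 in Rosi cells and 4 in Veh cells. The median of members in polysome over input in Veh cells was 0.37 with library totals alone and 0.16 to 0.32 with a library left out. The translation efficiency median was 0.17 with limma on log2(TPM + 1) and 0.17 to 0.38 with a library left out, and that of Rosi against Veh 0.05 without polysome Rosi replicate 3 to 0.19 without polysome Rosi replicate 1 in polysome and -0.15 without input Veh replicate 1 to -0.00 without input Veh replicate 2 in input. Over all genes, Rosi against Veh in input called 182, against 400 with DESeq2, 907 with no count filter, 1054 with all 12 libraries, 50 with limma, 77 in 1 fit of all groups and 66 to 1580 with a library left out, and in polysome 88, against 189 with no count filter, 45 with limma and 55 to 179 with a library left out. Translation efficiency called 0 genes, against 1 with DESeq2, 57 with no count filter and 0 to 9 with a library left out. Of 700 alternatives for named members, 680 kept direction and call, 11 lost the call, 5 gained one and 4 turned sign. The last were Atp5g1 in polysome Rosi against Veh, at -0.15 to 0.01 with a library left out (0.01 without polysome Veh replicate 2 and 0.00 without polysome Veh replicate 3), and Cox6a2 in translation efficiency, at -0.53 to 0.10 (0.10 without polysome Veh replicate 2 and 0.01 without input Veh replicate 2). The cause was not tested.

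Whether the replicate numbers pair the libraries was not settled. Same-numbered libraries deviated together with correlations of -0.23 to 0.11, against -0.11 to 0.27 for other numbers. With 2 or 3 libraries in a group, such correlations cannot show that pairing is absent. The article took input RNA before fractionation, so polysome and input libraries may share cultures, while the main fits treated all libraries as independent. With the number as a replicate block, polysome against input called 30 members in Rosi cells and 21 in Veh cells, and Rosi against Veh and translation efficiency called 0. With 2 libraries in input Veh, differences that rest on that group are the least certain.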
